A study of Homo sapiens with 3 samples.

Results

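The genes described here encode the protein subunits of the mitochondrial ribosome. They were chosen by name, as the protein-coding genes of the RefSeq GRCh38 list whose symbol is MRPL (large subunit) or MRPS (small subunit) followed by a number, which gave 77 of 20033 protein-coding genes, 49 MRPL and 28 MRPS. The cells were ALL-SIL, an established human T-cell acute lymphoblastic leukaemia line, grown without any drug or genetic change named in the labels. Formaldehyde-fixed, sonicated chromatin was precipitated with an antibody to histone H3 monomethylated at lysine 4 (H3K4me1) or trimethylated at lysine 4 (H3K4me3), and input DNA served as the control. There was 1 library of each, so no value below has a replicate check and no p-value is given. The 95% intervals printed are exact binomial intervals for shares and order-statistic intervals for medians, and they cover counting over genes only.

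The mitochondrial ribosome translates the few messenger RNAs that the mitochondrial genome encodes, all of them for subunits of the oxidative phosphorylation complexes. Its RNAs are made in the organelle, whereas every one of its proteins is encoded in the nucleus, made in the cytosol and imported. Some of these proteins have counterparts in the bacterial ribosome and others were added in the mitochondrial lineage. H3K4me3 typically marks the nucleosomes around an active start site, and H3K4me1 typically lies farther out on either side of it and at enhancers. A single stretch of H3K4me3 can cover the starts of a pair of genes transcribed away from each other, an arrangement called a bidirectional promoter.

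The promoter windows below run from 250 bases before to 50 bases after the annotated start (RefSeq, GRCh38.p14) and are written in the direction of the gene. They were chosen because the results turn on these genes. MRPL46 and MRPS11 are the pair of members under a single H3K4me3 peak, and their windows are opposite strands of overlapping DNA. MRPS22 and MRPL52 had short peaks of high signal, MRPS18B had the longest peak, and MRPL41 had none. Capitals mark matches, on either strand, to the YY1 motif AAGATGGCG and the ETS motif CCGGAAG, and in MRPL41 to the SP1/KLF motif GGGCGG and the NF-Y motif CCAAT.
MRPL46, chr15:88467339-88467638, minus strand: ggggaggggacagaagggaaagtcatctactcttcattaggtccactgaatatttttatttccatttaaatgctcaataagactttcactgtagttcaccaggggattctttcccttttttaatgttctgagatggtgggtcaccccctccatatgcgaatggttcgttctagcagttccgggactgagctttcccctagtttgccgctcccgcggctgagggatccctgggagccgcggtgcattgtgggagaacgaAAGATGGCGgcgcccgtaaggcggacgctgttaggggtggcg
MRPS11, chr15:88467458-88467757, plus strand: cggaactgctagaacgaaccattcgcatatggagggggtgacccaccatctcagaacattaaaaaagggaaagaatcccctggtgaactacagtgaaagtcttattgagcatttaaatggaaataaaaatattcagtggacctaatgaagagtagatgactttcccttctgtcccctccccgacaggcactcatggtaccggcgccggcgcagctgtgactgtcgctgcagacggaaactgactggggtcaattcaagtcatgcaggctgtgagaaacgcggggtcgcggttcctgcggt
MRPS22, chr3:139343744-139344043, plus strand: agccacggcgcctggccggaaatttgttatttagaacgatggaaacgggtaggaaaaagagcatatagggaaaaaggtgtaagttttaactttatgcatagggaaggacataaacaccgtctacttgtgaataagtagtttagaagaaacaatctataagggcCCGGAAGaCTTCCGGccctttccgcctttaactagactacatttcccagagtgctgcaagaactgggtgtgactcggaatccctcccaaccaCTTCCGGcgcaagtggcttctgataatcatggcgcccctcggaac
MRPL52, chr14:22829637-22829936, plus strand: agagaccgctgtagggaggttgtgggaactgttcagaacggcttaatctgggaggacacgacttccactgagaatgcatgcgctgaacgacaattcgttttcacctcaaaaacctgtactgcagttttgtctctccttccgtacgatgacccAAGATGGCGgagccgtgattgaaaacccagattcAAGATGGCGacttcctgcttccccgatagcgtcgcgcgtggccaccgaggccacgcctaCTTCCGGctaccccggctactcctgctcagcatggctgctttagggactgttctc
MRPS18B, chr6:30617590-30617889, plus strand: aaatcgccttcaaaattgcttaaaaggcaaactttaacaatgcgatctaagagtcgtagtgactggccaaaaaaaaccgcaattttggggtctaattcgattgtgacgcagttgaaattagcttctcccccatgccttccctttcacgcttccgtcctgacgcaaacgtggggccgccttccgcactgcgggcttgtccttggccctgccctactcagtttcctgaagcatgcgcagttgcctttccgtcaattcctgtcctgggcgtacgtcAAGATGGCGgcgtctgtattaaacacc
MRPL41, chr9:137551629-137551928, plus strand: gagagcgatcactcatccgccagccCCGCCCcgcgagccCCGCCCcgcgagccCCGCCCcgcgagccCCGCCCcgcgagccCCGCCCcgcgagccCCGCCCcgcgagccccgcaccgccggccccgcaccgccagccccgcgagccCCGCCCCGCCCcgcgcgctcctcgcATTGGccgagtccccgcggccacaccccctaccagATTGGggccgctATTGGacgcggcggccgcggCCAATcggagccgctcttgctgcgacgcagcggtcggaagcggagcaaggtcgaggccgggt
MRPL46 carries a YY1 match that starts 9 bases into the transcribed part (the start base is counted as 1), and MRPS18B carries 1 that starts at base 24. MRPS22 has 3 ETS matches, with first bases at -87, -79 and 6. MRPL52 has YY1 matches at -98 and -64 and an ETS match at -5. The MRPS11 window holds none of the motifs searched, and the MRPL41 window holds 8 SP1/KLF and 4 NF-Y matches but no ETS or YY1 match.

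H3K4me3 lay at an end of nearly every member. A gene was counted as marked when an H3K4me3 peak overlapped the 1 kb on either side of either end of its RefSeq span, and 72 of the 77 members were marked (93.5%, interval 85.5 to 97.9). Among all 20033 protein-coding genes the share was 49.4%. The members lie on 21 chromosomes, and their 72 marked genes used 71 distinct peaks, since MRPL46 and MRPS11 share theirs. All 28 MRPS genes and 44 of the 49 MRPL genes were marked. H3K4me1 lay at an end of 52 of the 77 members (67.5%), against 42.6% of all protein-coding genes. Among genes with H3K4me3 at an end the shares were 50 of 72 members (69.4%) and 68.9% of all marked genes.

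The 5 unmarked members, MRPL23, MRPL24, MRPL28, MRPL41 and MRPL44, all encode large-subunit proteins. For MRPL24 and MRPL44, H3K4me3 covered the listed start, which lies inside a RefSeq span that extends beyond it. The MRPL24 peak was 1287 bp long (chr1:156740316-156741602) and the MRPL44 peak 808 bp long (chr2:223957422-223958229). Counting listed starts as well as span ends gave 74 of 77 members. The other 3 had no H3K4me3 peak near either end or inside the gene. The nearest peak lay 10453 bp from MRPL28, 25332 bp from MRPL41 and 55419 bp from MRPL23. MRPL28 had H3K4me1 at an end, whereas MRPL23 and MRPL41 had none there. Absence here means that no peak was called in this library, not that the mark is absent.

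The H3K4me3 peaks of the members had a length and height near those of marked genes in general. Their median length was 1428.5 bp (interval 1323 to 1609, quartiles 1209 and 1949.75, range 738 to 4300), against 1571 bp over the 9902 marked protein-coding genes (quartiles 1149 and 2132.75), which lies inside that interval. The peak was longer than that general median at 28 of the 72 members. With the peak of highest pileup in place of the longest, the members' median was 1413.5 bp (interval 1295 to 1486). The general median was then 1551 bp, outside the interval. Counting listed starts as well as span ends gave the same member values against 1577 bp, also outside. Under the other settings tried for length the general median lay inside. Peaks of 4 kb or more were rare in both sets, found at 1 of the 72 members (MRPS18B) and 308 of the 9902 marked genes. Pileup, the caller's count of overlapping fragments averaged over a peak, had a median of 14.025 at the members (interval 12.68 to 15.98, range 6.94 to 34.94) and 13.55 at all marked genes, and 38 of the 72 members lay above the latter. The median fold enrichment over input was 4.72 at the members and 4.56 at all marked genes.

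**Figure D1:**
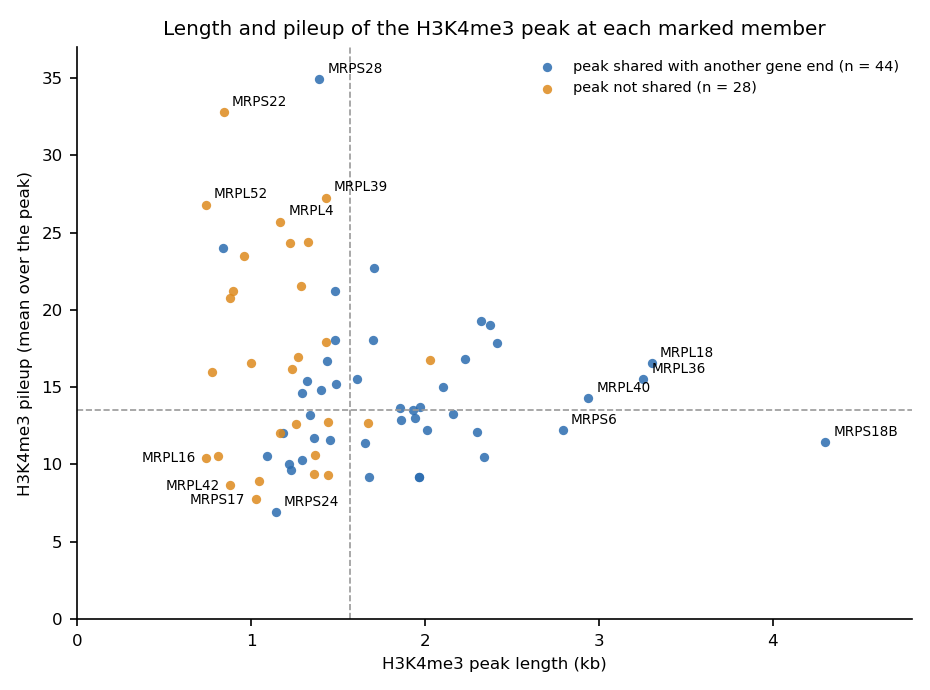
Each point is the H3K4me3 peak of 1 marked member, with its length (kb) on the horizontal axis and its pileup on the vertical axis. Blue points are peaks shared with the end of another gene (n = 44), orange points are peaks that are not (n = 28), and dashed lines give the medians over all marked protein-coding genes (1571 bp and 13.55). MRPL46 and MRPS11 share a peak and fall on the same point. The highest pileups lie at peaks shorter than the general median, and MRPS18B stands at the far right with 4300 bp.

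The 10 longest peaks were each shared with a neighbouring gene, and a longer peak can reach more gene ends. MRPS18B, whose product is a homologue of bacterial ribosomal protein S18, had 4300 bp (chr6:30614445-30618744, pileup 11.46) together with PPP1R10, a regulatory subunit of protein phosphatase 1. MRPL18 had 3302 bp together with TCP1, a subunit of the cytosolic chaperonin. MRPL36 had 3254 bp together with NDUFS6, a subunit of respiratory complex I. MRPL40 followed with 2939 bp, shared with HIRA, a histone chaperone, and MRPS6 with 2791 bp, shared with SLC5A3, an inositol transporter. The peaks of MRPS34 (NME3 and EME2), MRPS30 (its divergent lncRNA MRPS30-DT), MRPL51 (NCAPD2, a condensin subunit), MRPL32 (PSMA2, a proteasome subunit) and MRPL54 (APBA3 and an lncRNA) spanned 2298 to 2415 bp. At the short end stood MRPL52 with 738 bp, MRPL16 with 740 bp, MRPL22 with 773 bp, MRPL11 with 808 bp and MRPL10 with 837 bp. Of these 5 only MRPL10 shared its peak, with LRRC46.

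The highest signals were not at the longest peaks. The highest pileup, 34.94, was at MRPS28, a small-subunit gene on chromosome 8 that shares a 1391-bp peak with TPD52. That peak was also covered by H3K4me1 over all of its 1391 bp. H3K4me3 peaks on chromosome 8 had a median pileup of 17.63 (396 peaks) against 13.55 on the other autosomes (10307 peaks), and the part that this plays at the 3 members there was not tested. Without those 3 the members' median pileup was 13.66. MRPS22, which encodes a small-subunit protein without a bacterial counterpart, came next with a pileup of 32.79 in 842 bp (chr3:139343983-139344824) and had the highest fold enrichment of the members, 12.47. MRPL39 reached 27.26, MRPL52 26.80 and MRPL4 25.71. The lowest pileups were at MRPS24 (6.94), MRPS17 (7.74), MRPL42 (8.64), MRPL19 (8.93) and MRPL21 (9.20).

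Most members shared their H3K4me3 peak with another gene. A peak was called shared when it also overlapped the 1-kb end window of another protein-coding or lncRNA gene, which held for 44 of the 72 marked members (61.1%, interval 48.9 to 72.4). The background share was 53.0%, inside that interval. With each peak counted once, in place of each gene, 60.6% of 71 member peaks were shared (interval 48.3 to 72.0). Among all marked genes the share was then 43.2%. These shares are not alike, because such counting merges protein-coding genes that share a peak, which lowers the share among all genes. Among the members it merges only MRPL46 and MRPS11, since the other neighbours are not members. A peak shared by a member and another protein-coding gene still counted for each in the share of all genes. With protein-coding neighbours alone the count was 36 of 72 (interval 38.0% to 62.0%), against 36.0% of all marked genes, which lies just below the interval. Starts on opposite strands pointing apart lay under the peak at 29 of the 65 marked members of known strand (44.6%), against 36.5% of marked genes. Sharing was commoner among short genes in general: it held for 62.5% of marked genes with a span of up to 8538 bp and 47.3% of those with a span over 65135 bp. The members are short genes, with a median span of 8618 bp against 24130 bp, and 24 of the 33 marked members with a span of up to 8538 bp shared a peak (72.7%). At members with longer spans, up to 24130 bp, 11 of 24 did (45.8%), against 54.5% of marked genes of that span. With spans above that and up to 65135 bp, 6 of 10 members did (60%), against 50.6%. With still longer spans 3 of 5 members did (60%), against 47.3%.

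Counted by neighbour there were 46 pairs, 37 with a protein-coding gene and 9 with an lncRNA. In 30 pairs the starts pointed apart. In 5 the start of the member met the far end of the neighbour (HGS, CCDC142, CFAP70, GNRH2 and ZNF514), in 2 the starts lay on the same strand (NME3 and SLC5A3), and in 9 the strand was not listed for both. No member shared its peak with 3 or more other genes. The only pair within the family was MRPL46 and MRPS11, a large-subunit and a small-subunit gene whose starts lie 320 bp apart under a single 1967-bp peak of pileup 9.22 (chr15:88466476-88468442). Their promoter windows printed above have 181 bases in common. Counting each gene of that pair, 7 neighbours belonged to the gene lists used here: MRPL46, MRPS11, PSMA2 (proteasome, with MRPL32), NDUFS6 and NDUFB5 (complex I, with MRPL36 and MRPL47), SARS2 (mitochondrial seryl-tRNA synthetase, with MRPS12) and TWNK (the mitochondrial DNA helicase, with MRPL43). FAU, whose product is processed to a protein of the cytosolic ribosome, starts 49 bp from MRPL49 under a 1657-bp peak. The other neighbours have varied functions, among them SKA3 (kinetochore, with MRPL57), HELQ (a DNA helicase, with MRPS18C) and EME1 (an endonuclease subunit, with MRPL27).

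Members with a shared peak had longer peaks than those without, as did marked genes in general. A longer peak can meet more end windows, so this difference is not independent of how sharing was defined. The median length was 1701.5 bp at the 44 members with a shared peak and 1195.5 bp at the 28 without, against 1759 and 1369 bp over all marked genes. Only 2 of the 28 unshared member peaks exceeded the general median of 1571 bp (7.1%), against 37.5% of unshared peaks of all genes. Among shared peaks the shares were 59.1% (26 of 44) and 61.1%. Pileup went the other way in the members, with medians of 13.58 at shared and 16.38 at unshared peaks, against 13.79 and 13.30 in all marked genes. Where starts pointed apart, the median length was 1944 bp at the members and 1864 bp at all marked genes. Over the 28 distinct member peaks of this kind, length went with the distance between the starts (Spearman's rho 0.589, distances -427 to 1570 bp, negative where the transcripts overlap). Over 2106 peaks of all genes rho was 0.194. These points come from a single library, and a peak that covers both starts cannot be shorter than the distance between them.

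**Figure D2:**
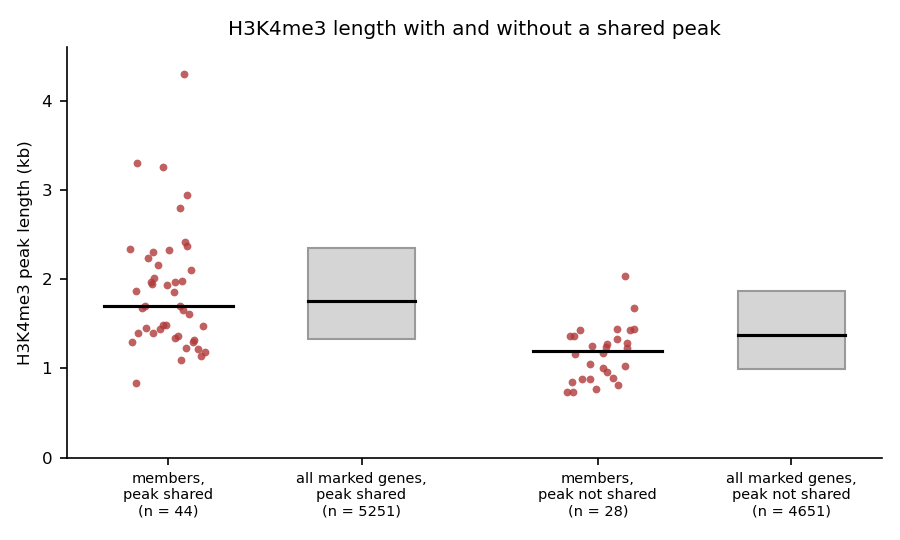
H3K4me3 peak length (kb) at marked members, as points with a black median line, and at all marked protein-coding genes, as grey boxes from the lower to the upper quartile with a black median line. Peaks shared with the end of another gene are on the left and unshared ones on the right. The unshared member peaks have a median of 1195.5 bp, and 2 of the 28 exceed 1571 bp, the median over all marked genes.

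In most members H3K4me3 ended within 1 kb of the start on the side of the gene. Among the 65 marked members with a listed start within 1 kb of the peak, the peak ended a median of 830 bp downstream of the start (interval 776 to 896, quartiles 725 and 932). For the 7720 marked protein-coding genes measured in the same way the median was 943 bp (quartiles 706 and 1327). H3K4me3 reached 1 kb or more past the start at 9 of the 65 members (13.8%), against 45.4% of those genes. The farthest reaches were at MRPS6 (2747 bp), MRPS30 (2209 bp), MRPS2 (1759 bp), MRPL18 (1642 bp) and MRPL17 (1385 bp), and the shortest was at MRPL40 (392 bp). Upstream the members were like the rest, with a median of 576 bp against 562 bp.

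Members with and without sharing lay far apart at the upstream edge of the peak and close together at the downstream edge. A peak that extends farther can meet more end windows, so the upstream contrast is not independent of how sharing was defined. The upstream median was 784 bp at members with a shared peak and 330.5 bp at those without (783 and 395.5 bp in all marked genes), whereas the downstream medians were 859 and 815.5 bp (946.5 and 938.5 bp). The peak reached farther downstream than upstream at 25 of 26 members without sharing (96.2%, against 87.5% of such genes in general). With sharing it did so at 19 of 39 members (48.7%, against 61.0%). Together these were 44 of 65 members (67.7%), against 73.8% of all genes measured. The downstream medians of all marked genes were 882 bp for spans of up to 8538 bp, 892 bp up to 24130 bp, 960 bp up to 65135 bp and 1067 bp beyond, and those of the members in the same order were 813, 833, 829 and 878 bp. The start base itself lay inside the peak at 64 of 65 members (98.5%), against 92.4%. The exception was MRPL22, whose peak begins 31 bp downstream of its start.

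**Figure D3:**
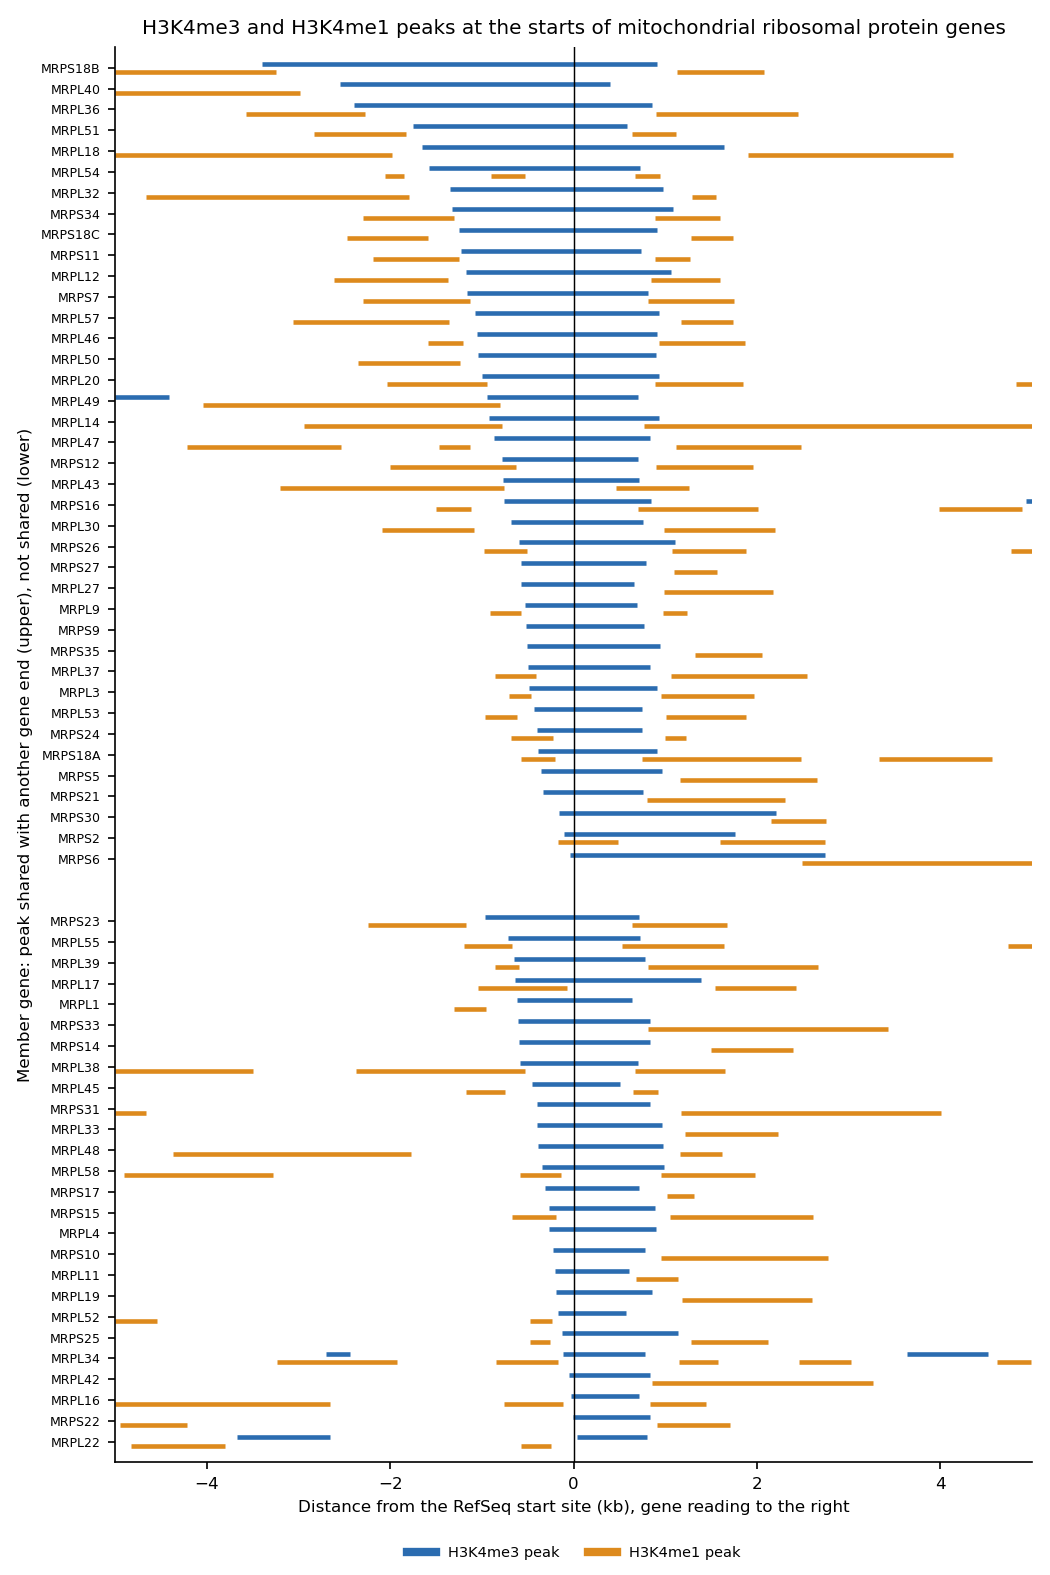
H3K4me3 (blue) and H3K4me1 (orange) peaks within 5 kb of the RefSeq start of the 65 marked members with a listed start, each gene drawn reading to the right and 0 kb at its start. The 39 members whose peak is shared with another gene end are above and the 26 others below, each set ordered by how far H3K4me3 extends upstream. At the measured peak of each gene the right-hand edge mostly lies just short of 1 kb. Its left-hand edge ranges from 31 bp downstream of the start (MRPL22) to 3395 bp upstream of it (MRPS18B). Other H3K4me3 peaks within 5 kb are drawn too, such as those farther upstream at MRPL22 and MRPL49.

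H3K4me1 flanked most member peaks, chiefly on the side of the gene body. With a flank defined as the 2 kb beyond a peak edge, H3K4me1 was on both flanks of 44 of 72 member peaks (61.1%, background 59.5%), on 1 flank of 26 (36.1%, background 30.4%) and on neither of 2 (2.78%, background 10.1%). The 2 were MRPL4, with a 1168-bp peak of pileup 25.71, and MRPS9, with a 1295-bp peak of pileup 10.28. Where strand was known, H3K4me1 lay downstream at 57 of 65 members (87.7%, background 79.8%) and upstream at 46 of 65 (70.8%, background 68.3%). It was downstream only at 17 and upstream only at 6. Of these, MRPL40, MRPL49 and MRPL50 have a gene transcribed the other way on the upstream side, and MRPL1, MRPL22 and MRPL52 share their peak with no gene. H3K4me1 overlapped the H3K4me3 peak itself at 31 of 72 members (43.1%, interval 31.4 to 55.3, background 45.9%).

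Sharing also went with H3K4me1 on both sides. Both flanks were marked at 31 of 44 shared member peaks (70.5%) and 13 of 28 unshared ones (46.4%), against 65.1% and 53.2% in all marked genes. Upstream, H3K4me1 was found at 31 of 39 shared and 15 of 26 unshared member peaks (79.5% and 57.7%), against 74.8% and 60.8% in all marked genes. Downstream it was found at 35 of 39 and 22 of 26 (89.7% and 84.6%), against 80.9% and 78.6%. Farther out, H3K4me1 peaks away from H3K4me3 and from gene ends were counted within the span and the 50 kb on each side of it. The median was 3 at marked members and 4 at all marked genes, whose longer spans make this window wider.

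Read position by position from the start, H3K4me3 gave way to H3K4me1 over a short distance in the members. At 1 kb downstream, 13.8% of the 65 members were inside H3K4me3 and 46.2% inside H3K4me1, against 45.4% and 27.7% of the 7720 genes. At 1500 bp downstream, 41 of 65 members (63.1%) were inside H3K4me1, against 43.0%. By 3000 bp downstream the order had turned, with 10.8% of members and 26.6% of genes inside H3K4me1. Upstream the order also turned: the shares inside H3K4me1 were 15.4% of members and 26.7% of genes at 500 bp, 32.3% and 21.4% at 2000 bp, and 16.9% and 11.3% at 4000 bp. These curves hold only genes with the peak at the start, so a high share inside H3K4me3 at 0 is fixed by that choice.

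**Figure D4:**
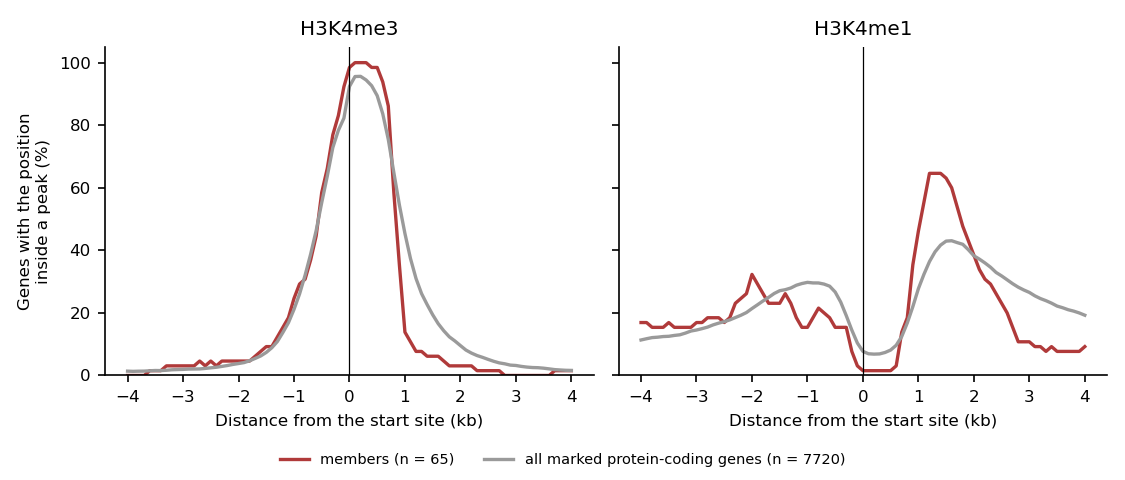
Share of genes (%) whose position lies inside an H3K4me3 peak (left) or an H3K4me1 peak (right), every 100 bp from 4 kb upstream to 4 kb downstream of the start. Red is the 65 members and grey all 7720 marked protein-coding genes with the peak at the start. In the members H3K4me3 drops to 13.8% at 1 kb and H3K4me1 is at 63.1% at 1500 bp, against 45.4% and 43.0% in all genes.

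By subunit, the large-subunit symbols had a median peak length of 1413.5 bp and pileup of 14.58 (44 marked), and the small-subunit symbols 1434 bp and 13.49 (28 marked). The large-subunit genes had H3K4me1 on both flanks at 29 of 44 peaks (65.9%) and the small-subunit genes at 15 of 28 (53.6%). On the upstream side H3K4me1 lay at 32 of 38 large-subunit and 14 of 27 small-subunit genes, and on the downstream side at 31 of 38 and 26 of 27. Splitting by origin, peaks were shared at 13 of 17 small-subunit genes with a bacterial counterpart and 4 of 9 without, and at 15 of 27 and 10 of 17 of the large-subunit genes. MRPS18A and MRPS30, whose proteins sit in the large subunit despite their symbols, had shared peaks of 1295 and 2374 bp. These groups are small and their intervals wide, and no difference between them was tested.

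Genes that work with the mitochondrial ribosome were marked about as often. All 5 of its components with another kind of symbol had H3K4me3 at an end, with H3K4me1 on both flanks: DAP3 (2198 bp, shared with YY1AP1), PTCD3 (2311 bp, shared with POLR1A), CHCHD1 (1584 bp, shared with an lncRNA), AURKAIP1 (1536 bp) and GADD45GIP1 (992 bp). So had all 28 assembly factors and all 17 translation factors of the lists used, although not all of these with both flanks. The mitochondrial tRNA synthetase list also holds GATB, GATC and QRSL1, which encode amidotransferase subunits, and 21 of its 22 genes were marked. The exception was FARS2, for phenylalanine, with 2067 bp of H3K4me3 inside its span. Of the genes for mitochondrial transcription and DNA replication 9 of 10 were marked, the exception being MTERF2, with none inside.

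Gene families that are all widely marked had different median reaches of H3K4me3 past the start, listed here without a test. It was 750 bp at assembly factors (25 genes) and 793 bp at the mitochondrial tRNA synthetase list (17 genes). Subunits of complex I and ATP synthase (43 genes) had 834 bp, mitochondrial transcription genes (8 genes) 870.5 bp and translation factors (16 genes) 938.5 bp. The median was 1030 bp at proteasome genes (35 genes) and 1170.5 bp at cytosolic ribosomal protein genes (66 genes). A reach of 1 kb or more was found at 53 of the 66 cytosolic ribosomal protein genes (80.3%), against 9 of 65 mitochondrial ones (13.8%). The share was also low at assembly factors (12%), mitochondrial transcription genes (12.5%), the tRNA synthetase list (17.6%) and complex I and ATP synthase genes (18.6%). It was 50% at translation factors and 57.1% at proteasome genes. Cytosolic ribosomal protein genes were marked at 83 of 87 and had a median pileup of 13.77, a median peak length of 1850 bp and 47.0% of peaks shared (interval 35.9 to 58.3, which overlaps that of the members). Complex I and ATP synthase genes had 52 of 56 marked, a median length of 1492 bp and 59.6% shared. Proteasome genes had 42 of 48 marked, 1636.5 bp and 42.9%. Of these 3 families the unmarked genes included RPL10L, RPL26L1, RPL39L, RPS4Y2, PSMA6, PSMA8, PSMB11, PSMF1, PSMG2, PSMG4, ATP5MC2, ATP5MGL and NDUFA5, of which RPL10L, RPL39L and PSMA8 are copies used mainly in the testis.

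Promoter windows were listed for 69 of the 77 members, 65 of them marked, and were searched for 7 short motifs on both strands. Where a gene had several listed starts, the window of the most upstream one was used, which need not lie under the measured peak. The ETS motif CCGGAAG was found in 28 of the 65 marked members (43.1%), against 23.1% of the 8285 marked protein-coding genes with a window and 10.3% of all 35116 windows of the table. The YY1 motif AAGATGGCG was found in 13 (20.0%), against 4.8% and 1.7%. These are binding motifs of the ETS family of activators and of the zinc-finger factor YY1. They share the letters AAG, so that matches could overlap, but no member had overlapping matches. MRPL38, MRPL52, MRPS10 and MRPS18A held both. Of the 14 YY1 matches in marked members, 12 were in the direction of the gene (85.7%) and 10 lay after the start (71.4%), against 76.2% and 68.2% of 403 matches in all marked genes. Of the 38 ETS matches, 32 lay no more than 100 bases before the start or after it (84.2%, against 73.5%).

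The other 5 motifs had shares in the members that were near or below those of marked genes. The NRF1 motif, of a factor known as a regulator of nuclear genes for mitochondrial proteins, was found in 12.3% of marked members, 14.1% of marked genes and 5.8% of all windows. For the SP1/KLF motif GGGCGG the shares were 56.9%, 71.7% and 45.0%, and for the NF-Y motif CCAAT they were 27.7%, 38.6% and 34.6%. The TATA box TATAAA was found in 3.1%, 5.1% and 11.5%, and the ZBTB33 motif in 1.5%, 1.2% and 0.4%. The median GC content of the windows was 60.3% in marked members and 65.0% in marked genes. Members with an ETS match had a median peak length of 1418 bp and pileup of 14.715, and those without one 1429 bp and 12.88. With a YY1 match the values were 1295 bp and 15.5, and without one 1433 bp and 13.205. A match describes letters in the window, and binding was not measured.

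**Figure D5:**
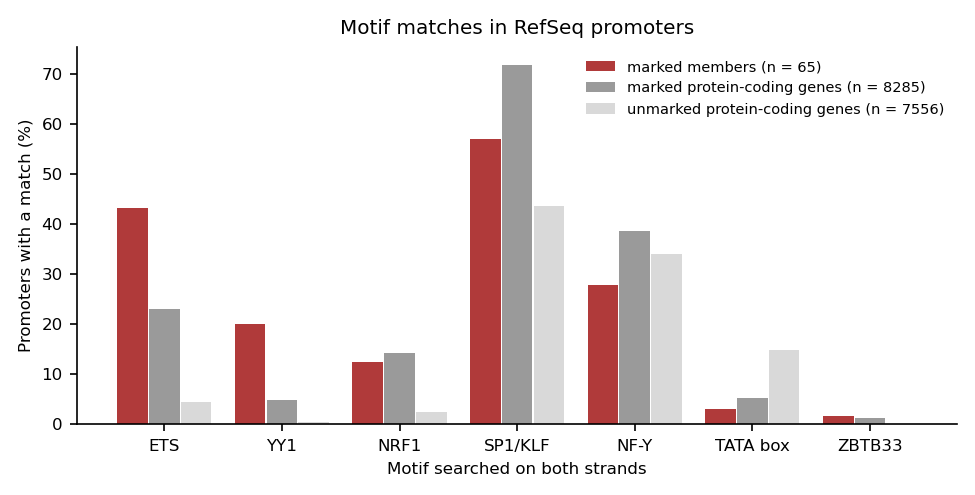
Share of promoter windows (%) with at least 1 match to each motif, searched on both strands, in marked members (red, n = 65), all marked protein-coding genes (dark grey, n = 8285) and unmarked protein-coding genes (light grey, n = 7556). The ETS and YY1 bars of the members, 43.1% and 20.0%, stand above those of marked genes, 23.1% and 4.8%, and the SP1/KLF and NF-Y bars stand below.

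As a check of the cell label, 6 of 9 T-lineage marker genes had H3K4me3 at an end (BCL11B, CD3D, CD3E, CD3G, CD7 and LEF1). TCF7 and CD5 had 9010 and 1670 bp of H3K4me3 inside the gene, and CD2 had none. Of 5 B-lineage markers only CD79B was marked, and none of the 5 myeloid or 4 erythroid markers was. After removal of duplicate positions the libraries held 30823016 (H3K4me3), 34813455 (H3K4me1) and 18859011 (input) tags, and the deposited lists hold 11100 H3K4me3 and 62087 H3K4me1 peaks.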

How the data were processed

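Per the labels and the file headers, chromatin from ALL-SIL cells was sequenced in 1 H3K4me3, 1 H3K4me1 and 1 input library, and the authors called broad regions with MACS2 2.1.0.20150731 at q 0.1 (strong regions at 0.05), keeping 1 tag per position and using the same input for both marks. The build is GRCh38, per the submitters' processing notes. Paths in the headers name STAR, whose version is not given in the sources used here. Both deposited lists give, for each region, its length, its pileup (a signal, coverage averaged over the region), its fold enrichment (a ratio to input) and its −log10 q, all as the authors' caller wrote them. Pileups were used only within a list.

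Gene spans came from the RefSeq gene table (GRCh38.p14), and starts, strands and promoter windows from the RefSeq promoter table, which lists 69 of the 77 members (not MRPL2, MRPL10, MRPL13, MRPL15, MRPL21, MRPL23, MRPL35 and MRPS28). Spans of 20033 protein-coding and 18303 lncRNA genes were compared with the peaks in Python 3.11.15 with pandas 2.3.3, numpy 2.4.6 and scipy 1.17.1, any overlap of 1 bp counting. Where several peaks lay at a gene's ends, the longest was used. The nearest listed start to the peak was taken as the start for distances and flanks. Motifs and GC content were read in the window of each gene's most upstream listed start. The scripts were tested on simulated peaks with known answers. With 1 library per mark there was no test, and precision is limited by the number of genes and by the depth behind each call.

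The genes named are every unmarked member, the 10 longest and 5 shortest peaks, the 5 highest and 5 lowest pileups, members that share a peak, those without H3K4me1 on a flank, and the mitoribosome components of another symbol. Genes named at the extremes of downstream reach and in the motif results were picked after their values were seen. The members, lists and motifs were chosen with earlier results of these data known. Alternatives tried were a limit on −log10 q, merged or otherwise chosen peaks, other windows and flanks, starts only, and shorter H3K4me1 lists.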

Additional observations from a re-analysis of the deposited data

How the results depend on the processing

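Of 62 values computed under other settings, 54 stayed within the interval of the value reported and 8 did not. With H3K4me3 peaks of −log10 q of at least 10 only (4828 peaks), 45.5% of the 77 members were marked (22.3% of all genes) and their median pileup was 18.06 (17.96). With annotated starts in place of span ends, 46.3% of peaks were shared (41.5%). Where H3K4me1 had to cover at least 50% of the peak, 1.39% overlapped H3K4me1 (5.90%). With the H3K4me1 peaks at or above their median −log10 q, 27.8% had H3K4me1 on both flanks (23.4%) and 30.6% overlapped it (25.02%). With only as many H3K4me1 as H3K4me3 peaks, these shares were 11.1% and 11.1% (7.13% and 9.50%). With annotated starts, far ends of genes and genes without a listed start no longer count. In the main setting 5 pairs met the far end of the neighbour and 9 had no strand listed for both. How much each changed the share was not tested. The other settings that moved a value keep fewer peaks or ask for more overlap. The downstream reach stayed between 803 and 832.5 bp under 5 settings added after seeing the data, against 890 to 961 bp in all genes. No paired analysis was possible because each mark has 1 library. Weak regions below the caller's limit are not in the lists, so a missing peak is limited by depth.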

Other observations

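Few pseudogene copies of the family carried either mark. Shares over all pseudogenes and all lncRNA genes are not given here, so the counts below have no background. Of 106 pseudogenes with an MRPL or MRPS symbol, 2 had H3K4me3 at an end (1.89%) and 8 had H3K4me1 there (7.55%). The 2 were MRPL45P2, with a 926-bp peak of pileup 19.99, and MRPS31P5, with a 1239-bp peak of pileup 11.67. Both are listed as transcribed pseudogenes, and neither peak touched the end window of a protein-coding gene or an lncRNA. Of 7 lncRNA genes named after a member, 5 had H3K4me3 at an end. At MRPL20-DT, MRPS30-DT, MRPS35-DT and MRPS9-AS2 the peak was that of the member itself. At MRPL20-AS1 it was a separate 2244-bp peak, shared with CCNL2, and MRPL23-AS1 and MRPS9-AS1 had none.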
